A study of Mus musculus with 9 samples.

Results

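The mitochondrial ribosome translates the few proteins that the mitochondrial genome encodes, all of them core subunits of the oxidative phosphorylation complexes. Its RNAs come from mitochondrial DNA, whereas all of its proteins are made in the cytosol from nuclear genes and imported, so the nuclear Mrps and Mrpl genes set the supply of parts for a small and a large subunit. In liver macrophages, as elsewhere, some of these proteins descend from bacterial ribosomal proteins and others were added in mitochondria, and several are known from recessive mitochondrial disease.

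The genes described here are the rows of the count table whose symbol begins with Mrps or Mrpl and a number, 76 of 23413 genes. Of these, 29 carry an Mrps and 47 an Mrpl symbol. By the position of the protein, 26 belong to the small and 49 to the large subunit, because Mrps18a and Mrps30 encode large-subunit proteins in spite of their symbols. The remaining gene, Mrps36, encodes a component of the 2-oxoglutarate dehydrogenase complex and was kept because its symbol matches. By origin, 45 of the proteins are counted as homologues of bacterial ribosomal proteins and 30 as specific to mitochondria.

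RNA-seq was performed on F4/80+ CD11b+ Gr1low cells sorted from the livers of male C57BL/6 mice, which the labels call Kupffer cells (KCs), the resident macrophages of the liver. Mice were 5 weeks old at the start and ate for 8 weeks either a normal control diet with 10% of the energy as fat (NC, 2 libraries) or a high-fat diet with 60% (HFD). HFD mice received vehicle (3 libraries) or 2 mg/kg diphenyleneiodonium (DPI, an agonist of the receptor GPR3 that also inhibits flavoenzymes, 4 libraries) every 5 days from week 3. A separate label field describes 500 nM DPI for 24 h, which matches cell culture and not the mouse titles. Each title names a mouse by number, so the libraries were taken as 1 animal each. The study's description of this experiment gives more mice per group than there are libraries, and whether a library came from a single animal cannot be settled from the sources used here. No group carries a transgene or deletion. The gate does not separate resident from recruited macrophages, although the study's methods describe the sorted cells as mostly KCs.

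The libraries held 3534325 to 15585775 counts, with a median of 4918629, and 27.0 to 44.5% of them fell on Rn45s, the ribosomal RNA precursor. General macrophage genes (Csf1r, Cd68, Lyz2 and Emr1, which encodes F4/80) were present in every library. Defining KC genes were low in most libraries. Clec4f counts were 0 and 244 for NC, 42, 0 and 0 for vehicle and 219, 6, 4 and 6 for DPI, while Vsig4 was at or under 3 counts in 6 of 9 libraries, Timd4 in 7 and Marco in all 9. The 13 listed KC genes together summed to 371 to 409 TMM-normalized CPM (counts scaled to a common library size) in NC, 546 to 1051 in vehicle and 430 to 644 in DPI libraries, of which Id3 and Emr1, which other macrophages also express, made up 61.4 to 96.6%. Without these, the sums were 12.7 and 158 in NC, 39.9 to 71.5 in vehicle and 41.9 to 93.2 in DPI libraries. The cells are called sorted liver macrophages below. Summed levels of 11 hepatocyte markers were 333 to 532 CPM in NC, 168 to 224 in vehicle and 213 to 349 in DPI libraries, and those of 9 endothelial markers were 141 to 224, 13.1 to 38.2 and 13.2 to 178. For both lists the NC libraries lay above all vehicle libraries, and for the KC list they lay below them. The 11 neutrophil markers summed to 1230 to 3178, 2550 to 3930 and 891 to 5628. The 7 B cell markers summed to 32.1 to 74.7 in NC and 101 to 196 in vehicle libraries, without overlap, and to 19.02 to 451 in DPI libraries. The 7 eosinophil markers summed to 8.74 to 45.9, 7.19 to 11.1 and 14.8 to 143, so that all DPI libraries lay above all vehicle libraries. Sums of the macrophage, T and NK cell and platelet lists overlapped between all groups. The part of these cell types in the results was not tested. In bulk RNA, fewer cells of a type and less RNA per cell cannot be told apart.

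All 76 genes were expressed well enough to be tested, and 71 had at least 10 counts in each of the 9 libraries. Of the 684 values, only 4 lay at or below the floor of 3 counts, and all 4 were in NC libraries. Library 1 of the NC group had 2 counts of Mrpl44, 3 of Mrps27 and 1 of Mrps5, and library 2 had 0 of Mrps22, and a count of 0 allows up to 3 counts. Floors cover counting error only.

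Some of these genes share their start regions with neighbours, and short stretches before the start site show what the regions look like. The stretches below are printed because their genes carry the results (Mrpl34, Mrps15, Mrps16 and Mrps11) or because they hold a motif counted over the family (Mrpl45 and Mrps27). Each is read 5′ to 3′ on the strand of the gene, comes from the RefSeq promoter table for GRCm38.p6, and was trimmed to the bases before the start site that overlap no exon of GENCODE M21. Capitals mark motifs.
Mrpl34, chr8:71464806-71464925, plus strand: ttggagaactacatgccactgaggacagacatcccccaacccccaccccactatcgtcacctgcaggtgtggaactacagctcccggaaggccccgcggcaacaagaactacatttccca
Mrps15, chr4:126046808-126046924, plus strand: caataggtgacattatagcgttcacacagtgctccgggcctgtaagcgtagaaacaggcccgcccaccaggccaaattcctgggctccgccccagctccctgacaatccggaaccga
Mrps16, chr14:20393635-20393754, minus strand: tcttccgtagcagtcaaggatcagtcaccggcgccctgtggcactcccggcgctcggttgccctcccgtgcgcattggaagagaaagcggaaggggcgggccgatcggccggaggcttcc
Mrps11, chr7:78783090-78783118, plus strand: ccatgaggcaacgcgggccggcgaggggc
Mrpl45, chr11:97315596-97315715, plus strand: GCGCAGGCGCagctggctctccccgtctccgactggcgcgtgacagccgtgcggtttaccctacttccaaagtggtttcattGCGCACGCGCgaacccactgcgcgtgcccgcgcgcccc
Mrps27, chr13:99344706-99344785, plus strand: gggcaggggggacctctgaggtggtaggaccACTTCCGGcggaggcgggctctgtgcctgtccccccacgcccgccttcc

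The Mrps11 stretch is the whole space of 29 bases between its first exon and an exon of Mrpl46 on the other strand, and another first exon of Mrpl46 overlaps Mrps11. Mrpl45 shows 2 matches to the motif of NRF1 (nuclear respiratory factor 1, a regulator of nuclear genes for mitochondria), and Mrps27 shows 1 match to the ETS motif bound by GABP. The stretches of Mrpl34, Mrps15 and Mrps16, genes that were lower in HFD vehicle than in NC libraries, hold none of the motifs searched. Nor does the Mrps11 stretch, which was trimmed to 29 bases, but the promoter window of Mrps11 holds a YY1 match at -108 from its start site, in the part that was trimmed.

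Promoter windows of 300 bases, from 250 before to 50 after the start site, were found for 67 of the 76 genes and searched on both strands. The NRF1 motif, in capitals in the Mrpl45 stretch and with any base allowed after its first adenine, occurred in 12 of 67 genes (17.9%), compared with 11.8% of 8503 tested genes with a window and 4.60% of all 32851 windows in the table. The GABP motif ACTTCCGG occurred in 12 genes (17.9%, compared with 9.44% and 3.89%) and the YY1 motif AAGATGGCG in 8 (11.9%, compared with 3.83% and 1.40%). The E-box CACGTG was found in 5 genes (7.46%, compared with 11.9% and 7.15%) and TATAAA in 5 (7.46%, compared with 8.77% and 13.6%). Only Mrps26 held both the NRF1 and the GABP motif, and only Mrps27 both the GABP and the YY1 motif. The NRF1 matches of Mrps26 overlap each other. These matches are descriptions of letters and were not related to the levels.

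The genes lie on 17 of the 19 autosomes and on neither sex chromosome, with at most 10 on a chromosome (chromosome 11). In 18 of them (23.7%) the start site faces that of a protein-coding gene on the other strand within 1000 bases, compared with 11.4% of 10293 tested coding genes. The partners include Sars2, the mitochondrial seryl-tRNA synthetase gene, at 172 bases from Mrps12. Another is Ndufs6, a complex I subunit gene, whose start site lies 29 bases past that of Mrpl36, so that exons of the genes overlap. Exons of 32 genes overlap those of another gene, on the other strand in 27, among them Mrpl18 (with Tcp1), Mrpl21 (with Ighmbp2), Mrpl13 (with Mtbp) and Mrps11 (with Mrpl46). In all, 18 of the 76 have an annotated pseudogene that matches their transcript at 95% identity or more over at least 200 bases, among them Mrpl23 (100% over 540 bases), Mrps18b (99.8% over 417), Mrpl21 (97.2% over 565), Mrps16 (96.3% over 402), Mrps5 and Mrps25. Counts of all of these genes are uncertain, because the counting method and its use of strand could divide reads between them and their neighbours or copies.

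Most ribosomal proteins are present in a single copy per particle, with Mrpl12 a known exception, and their mRNAs differed widely in level. Per kilobase of transcript, the TMM-normalized level averaged over all 9 libraries had a median of 15.8 CPM per kb. The highest genes were Mrpl33 (188 CPM per kb), Mrpl52 (163) and Mrpl30 (119), all 3 of the large subunit. The lowest were Mrpl47 (1.54), Mrps25 (2.87) and Mrps5 (2.97). The 3 lowest have long annotated transcripts (3364, 6073 and 4481 bases) and the 3 highest short ones (478, 440.5 and 662 bases), and the order depends on these lengths.

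**Figure D1:**
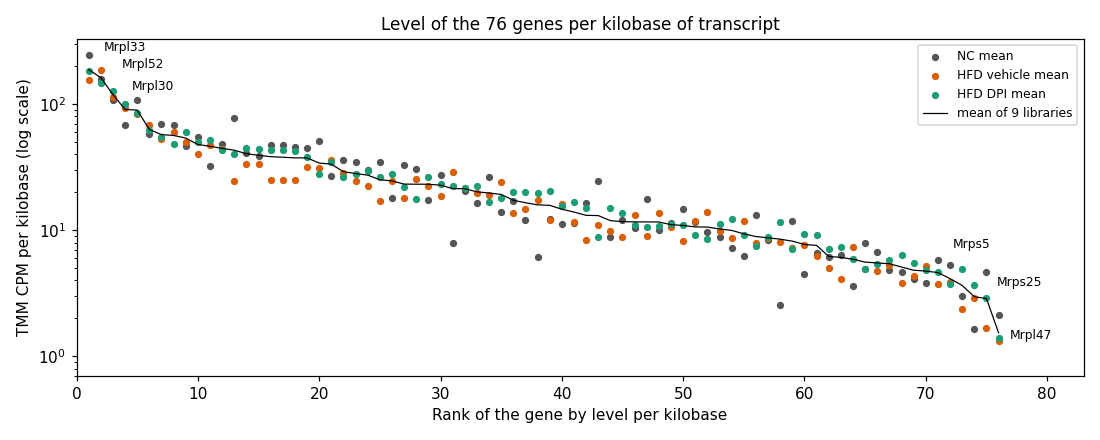
Level of each of the 76 genes, ranked from highest to lowest, as TMM-normalized CPM per kilobase of transcript on a log scale; colored points are group means and the line is the mean of 9 libraries. The levels span from 188 CPM per kb for Mrpl33 to 1.54 for Mrpl47.

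Before length was taken into account, Mrpl33 stood at 118 and 115 TMM-normalized CPM in the NC libraries, at 69.3, 73.6 and 80.8 in the vehicle libraries and at 118, 56.4, 87.4 and 90.2 in the DPI libraries. Both NC values thus lay above all vehicle values and the DPI values overlapped both groups, but its log2 difference of -0.64 ± 0.34 (SE) between vehicle and NC did not pass the test (edgeR unadjusted p = 0.0761). Mrpl30 ranged from 60.8 to 99.4 CPM and Mrpl52 from 53.5 to 111 CPM, with overlapping groups for both.

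The summed level of all 76 genes asks whether the family as a whole moved with diet or with DPI. As CPM of the library total it was 2474 and 2365 in NC, 1865, 1841 and 1446 in vehicle and 2397, 1805, 2184 and 1760 in DPI libraries, so both NC libraries lay above all vehicle libraries and the DPI libraries overlapped both groups. The group values were 2420 ± 77.1 (SD, n = 2) in NC, 1717 ± 235 (SD, n = 3) in vehicle and 2037 ± 306 (SD, n = 4) in DPI libraries. NC and vehicle also did not overlap after TMM normalization (2103 and 2121 compared with 1762 to 1890) or when Rn45s was left out of the total (3782 and 3432 compared with 2522 to 2958). Under TMM the 3 highest DPI libraries (2167 to 2290) exceeded both NC libraries, whereas DPI library 4 (1658) was the lowest of all 9. Without Rn45s the DPI libraries (2515 to 3315) lay below both NC libraries and overlapped the vehicle libraries. Sums of the hepatocyte markers (333 to 532 in NC, 168 to 224 in vehicle) and endothelial markers (141 to 224, 13.1 to 38.2) also lay above in NC. Those of the KC and B cell lists lay below, and the part of these cells in the summed level was not tested.

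**Figure D2:**
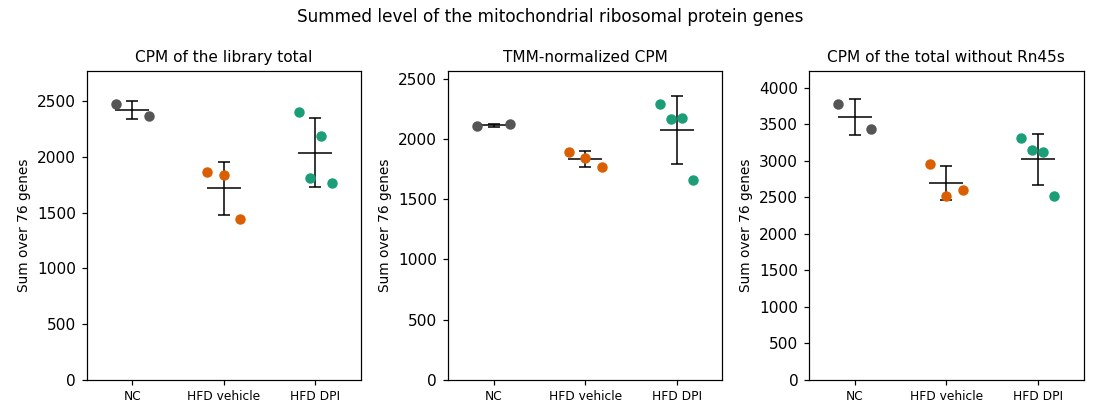
Summed level of the 76 genes in each library (points) with the group mean and SD (bars), on 3 scales: CPM of the library total, TMM-normalized CPM and CPM of the total without Rn45s. On each scale the 2 NC libraries lie above the 3 vehicle libraries, and the 4 DPI libraries overlap the vehicle libraries.

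DPI library 4 also had the highest summed level of neutrophil markers (5628) and of B cell markers (451, compared with 19.02 to 196 in the other libraries), and the part of these cells in its low sum was not tested. The ratio of small- to large-subunit counts ranged from 0.351 to 0.455 and averaged 0.437 ± 0.0258 (SD, n = 2) in NC, 0.395 ± 0.0378 (n = 3) in vehicle and 0.409 ± 0.0418 (n = 4) in DPI libraries. The ranges of all groups overlapped.

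The spread between libraries was estimated gene by gene. The biological coefficient of variation estimated for each gene had a median of 0.433 over the 76 genes, compared with 0.496 over 7502 tested genes in the same range of levels and 0.557 over all tested genes. Within the family it was lowest for Mrpl30 (0.286) and highest for Mrps22 (1.01), a small-subunit gene of mitochondrial disease.

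The NC libraries differed most from each other. On the scale of log2 (CPM + 1), 8 of 76 genes (10.5%) differed more than 4-fold between them, compared with 0 to 3.95% in the 9 other pairs of libraries of 1 group. Among the 7502 genes of the same level range, the share was 19.1% in the NC pair and 2.84 to 5.88% in the others. Lower in NC library 1 were Mrpl45 (6 compared with 224 counts), which encodes the protein that anchors the ribosome at the inner membrane, Mrpl44 (2 and 98), Mrps5 (1 and 78), Mrps27 (3 and 78), Mrps18b (10 and 70) and Mrps35 (49 and 211). Lower in NC library 2 were Mrps22 (70 and 0) and Mrps7 (199 and 44). All comparisons with NC rest on these 2 libraries, and values without either of them are given beside some of the results.

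**Figure D3:**
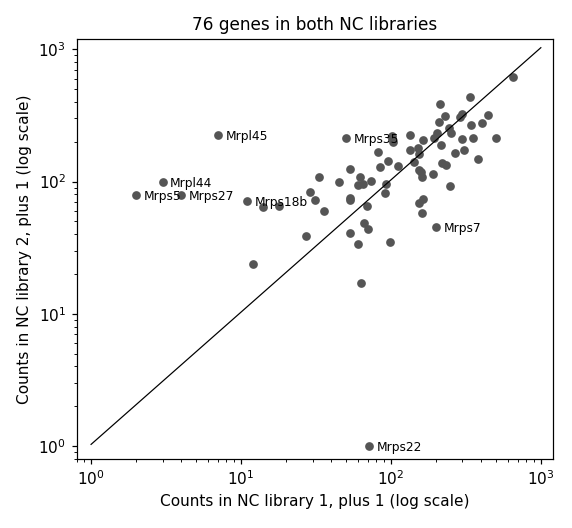
Counts of the 76 genes in NC library 1 (horizontal) and NC library 2 (vertical), each plus 1, on log scales; the line marks equal shares of the library total. The 8 named genes differ more than 4-fold, 6 of them with fewer counts in library 1.

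The comparison of vehicle-treated HFD mice with NC mice asks how the diet related to the family. The labels give no treatment for the NC mice, so the diet and the repeated vehicle dosing cannot be told apart in it, nor can the diet and the dosing between DPI and NC mice. Of the 76 genes, 3 passed the threshold used by the study (unadjusted p under 0.05 and at least a 2-fold change), 1 lower and 2 higher, or 3.95%, compared with 11.7% of all 11393 genes tested (4.63% lower and 7.03% higher). The gene that fell was Mrpl34, and the genes that rose were Mrpl21 and Mrps18b. At an unadjusted p under 0.05 alone there were 6 (7.89%, compared with 13.0% of all genes), the other 3 being Mrps15, Mrps16 and Mrpl18, all lower. After Benjamini-Hochberg adjustment in the quasi-likelihood test of edgeR none remained, compared with 7 of all genes (0.0614%).

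The median log2 fold change of the family was -0.21, compared with 0.03 over all genes, with 33 values above and 43 below 0. Scaling by library size alone moved the median of all genes by -0.29 and that of the family to -0.52, and relative to all genes the family stood at -0.24 by TMM, -0.24 by size factors and -0.26 by library size. Without NC library 1 the median of the family was -0.07, without library 2 it was -0.06, and without vehicle library 1 or 3 it was -0.05 or -0.04, where the medians of all genes were 0.14, 0.29, 0.06 and 0.06. Groups did not overlap for 26.3% of the genes, 14 lower and 6 higher in vehicle libraries, compared with 27.5% of all genes (12.5% lower and 15.0% higher). The hepatocyte and endothelial marker sums were also lower in all vehicle libraries, and the KC and B cell sums higher. Their part in these differences was not tested.

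Mrpl34, a short conserved protein of the large subunit, had 54.5 and 39.2 CPM in NC libraries and 12.4, 19.2 and 12.9 in vehicle libraries. All vehicle values were below both NC values, and the fold was 3.15-fold lower (log2 -1.65 ± 0.46, edgeR unadjusted p = 0.00302, adjusted p = 0.191). It lies on chr8:71464959-71465747 with no overlapping gene and no near-identical copy, and its log2 fold change stayed between -1.89 and -1.39 when any library was left out, with an unadjusted p under 0.05 each time. DPI libraries had 27.6, 33.3, 20.6 and 16.1 CPM, all below both NC values and overlapping the vehicle values.

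Among the small-subunit genes, Mrps15, which encodes an early-binding protein of the subunit, had 45.5 and 43.5 CPM in NC and 25.7, 23.2 and 21.8 in vehicle libraries, 1.89-fold lower (log2 -0.92 ± 0.36, edgeR unadjusted p = 0.0256, adjusted p = 0.333). Mrps16, a gene of inherited mitochondrial disease, had 44.3 and 46.9 CPM in NC and 17.8, 19.8 and 31.7 in vehicle libraries, 1.98-fold lower (log2 -0.98 ± 0.42, edgeR unadjusted p = 0.0359, adjusted p = 0.355). Neither pair of groups overlapped. The unadjusted p in edgeR was 0.0589 to 0.0782 for Mrps15 without NC library 1, NC library 2 or vehicle library 3. For Mrps16 it was 0.0537 to 0.123 without either NC library, vehicle library 1 or 2 or DPI library 2. Fitted with only these groups or with a replicate block, the edgeR unadjusted p was 0.0508 and 0.0511 for Mrps15 and 0.0567 and 0.0589 for Mrps16.

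Mrpl18, whose protein sits in the central protuberance of the large subunit, had 62.5 and 49.9 CPM in NC and 28.2, 32.1 and 31.2 in vehicle libraries, again without overlap. It was 1.84-fold lower (log2 -0.88 ± 0.36, edgeR unadjusted p = 0.0280, adjusted p = 0.338), and the unadjusted p was 0.140 without NC library 1, 0.0838 without vehicle library 1 and 0.0670 without vehicle library 3.

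Mrps25, a small-subunit gene with the next lowest log2 fold change after Mrpl34, had 24.4 and 32.1 CPM in NC, 13.3, 12.7 and 4.46 in vehicle and 32.5, 23.1, 6.86 and 7.65 in DPI libraries. The vehicle libraries were below both NC libraries, but the difference did not pass the test (log2 -1.47 ± 0.72, edgeR unadjusted p = 0.0598, adjusted p = 0.404). Under 6 of the 10 alternative settings it passed the study's threshold (unadjusted p = 0.0343 to 0.0490 in edgeR or DESeq2), and under the others the p was 0.0563 to 0.106. When any library was left out, its log2 fold change was -1.66 to -1.07, and it passed that threshold only without DPI library 3.

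Both genes that rose have a near-identical pseudogene copy. Mrpl21, a large-subunit gene, had 4.74 and 7.10 CPM in NC and 20.4, 11.97 and 18.1 in vehicle libraries, 2.84-fold higher (log2 1.504 ± 0.56, edgeR unadjusted p = 0.0181, adjusted p = 0.311). Mrps18b, 1 of 3 genes related to bacterial S18 (its protein and that of Mrps18a are counted as mitochondria-specific in the nomenclature of the ribosome), had 1.82 and 13.1 CPM in NC and 23.5, 38.8 and 19.6 in vehicle libraries, 3.67-fold higher (log2 1.87 ± 0.70, edgeR unadjusted p = 0.0190, adjusted p = 0.313). NC library 1 decides the size for Mrps18b: the log2 fold change was 1.08 without it (edgeR unadjusted p = 0.0979) and 3.93 without NC library 2, and without vehicle library 2 it was 1.53 (unadjusted p = 0.0686). For Mrpl21, leaving out NC library 1 gave 1.25 (edgeR unadjusted p = 0.0792). Its p was also above 0.05 with library-size scaling (0.0597), with only these groups fitted (0.0607) and with a replicate block (0.0592) in edgeR, and that of Mrps18b was 0.0583 with only these groups fitted.

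The other S18-related genes had no unadjusted p under 0.05 in any comparison. Mrps18a had 28.0 and 12.7 CPM in NC, 33.3, 27.2 and 20.8 in vehicle and 32.8, 21.7, 37.5 and 12.4 in DPI libraries, with overlap of all groups. Mrps18c had 29.3 and 20.0 CPM in NC, 18.4 to 23.6 in vehicle and 23.8 to 31.0 in DPI libraries, and only the DPI and vehicle libraries did not overlap.

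Genes with few counts in NC library 1 show how far that library carries the comparison. Without NC library 2, 13 of 76 genes (17.1%) passed the study's threshold, compared with 21.4% of all genes in that fit, and Mrpl44, Mrpl45, Mrps5 and Mrps18b had adjusted p-values of 0.0333, 0.0154, 0.0163 and 0.0152 in edgeR. With both NC libraries, Mrpl44, Mrpl45 and Mrps5 did not pass (edgeR unadjusted p = 0.947, 0.848 and 0.438), and the Mrpl45 values of the vehicle libraries, 31.5, 23.0 and 18.1 CPM, lay between its NC values of 1.09 and 41.8 CPM.

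**Figure D4:**
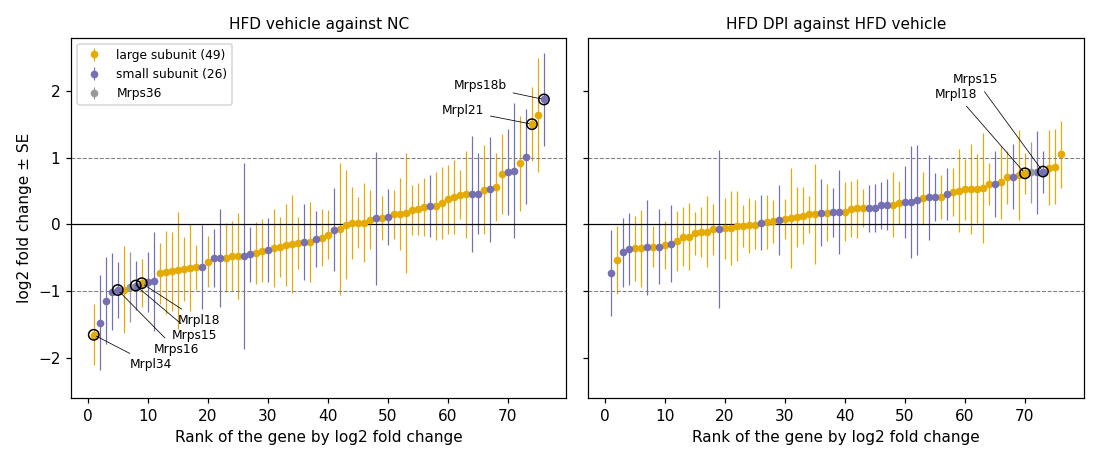
Log2 fold change with its SE for each of the 76 genes, ranked within each panel, for HFD vehicle against NC (left) and HFD DPI against HFD vehicle (right); dashed lines mark a 2-fold change and circled genes had an unadjusted p under 0.05. On the left 43 genes lie below 0 with Mrpl34 lowest at -1.65, and on the right 51 lie above 0 with Mrpl1 highest at 1.05.

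The comparison of DPI with vehicle within HFD mice asks whether the treatment related to the family. No gene of the 76 passed the study's threshold, compared with 2.84% of all genes (1.5% higher and 1.34% lower). At an unadjusted p under 0.05 there were 2 genes (2.63%, compared with 4.13% of all genes), Mrps15 and Mrpl18, both higher, and by the quasi-likelihood test of edgeR no gene of the family or of the whole table had an adjusted p under 0.05. The likelihood ratio test gave 1 such gene in the whole table and DESeq2 gave 2, none of them of the family. The median log2 fold change was 0.18, compared with 0.04 over all genes, and 51 of 76 values (67.1%) lay above 0, compared with 53.1% over all genes. This median remained between 0.12 and 0.32 when any single library was left out, and it was 0.32 with a replicate block, with 59 of 76 values above 0. The eosinophil markers were also higher in every DPI library than in every vehicle library (14.8 to 143 compared with 7.19 to 11.1 CPM in sum), and their part in these differences was not tested.

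Mrps15 had 46.3, 40.4, 46.2 and 30.7 CPM in DPI libraries, all above the 21.8 to 25.7 of the vehicle libraries, 1.73-fold higher (log2 0.79 ± 0.32, edgeR unadjusted p = 0.0252, adjusted p = 0.999). Mrpl18 had 47.4, 62.2, 62.3 and 36.3 CPM, all above the 28.2 to 32.1 of the vehicle libraries, 1.70-fold higher (log2 0.77 ± 0.31, edgeR unadjusted p = 0.0267, adjusted p = 0.999). Both genes were also lower in vehicle than in NC libraries, and the comparisons share the 3 vehicle libraries, so the directions are not independent of each other. For Mrps15 the unadjusted p lay above 0.05 without vehicle library 2 or 3 or without DPI library 1 or 3, with values of 0.0540 to 0.0750, and for Mrpl18 without vehicle library 1 or 3 or DPI library 2 or 3, with values of 0.0606 to 0.0782 in edgeR.

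Groups did not overlap for 7 genes (9.21%, compared with 5.85% of all genes, 3.38% higher and 2.48% lower). Besides Mrps15 and Mrpl18, the DPI libraries were all higher for Mrpl1, Mrpl35, Mrps9 and Mrps18c and all lower for Mrpl46. Mrpl1, a stalk protein gene of the large subunit, had 4.66, 11.1 and 8.67 CPM in vehicle and 17.0, 15.3, 20.97 and 14.4 in DPI libraries, the largest log2 fold change of the family (1.05 ± 0.50, edgeR unadjusted p = 0.0548, adjusted p = 0.999). Mrpl35 had 30.9, 37.7 and 41.4 CPM in vehicle and 47.1, 58.4, 60.9 and 57.2 in DPI libraries. Neither gene passed the test.

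DPI-treated HFD mice were also set against NC mice, a comparison that shares its libraries with both others. Of 76 genes, 4 passed the study's threshold (5.26%, compared with 9.29% of all genes, 6.24% higher and 3.05% lower), 3 higher (Mrpl21, Mrpl13 and Mrps18b) and 1 lower (Mrps11). Mrpl34 also reached an unadjusted p under 0.05 (6.58%, compared with 10.7% of all genes), but not without vehicle library 1 or 3 or DPI library 1, 3 or 4 (edgeR unadjusted p = 0.0549 to 0.0901) or under 5 of the 10 alternative settings (edgeR unadjusted p = 0.0515 to 0.200). Without NC library 1 its log2 fold change was -0.68. None of the 76 passed after adjustment in the quasi-likelihood test of edgeR, compared with 1 of all genes (0.00878%). The median log2 fold change was 0.08, compared with 0.04 over all genes, and became -0.14 under library-size scaling, where the median of all genes was -0.17. Groups did not overlap for 21.1% of the family, 10 genes higher and 6 lower, and for 20.2% of all genes (11.7% higher and 8.5% lower).

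Mrpl21 again was higher, at 24.3, 16.3, 19.1 and 16.9 CPM in DPI libraries compared with 4.74 and 7.10 in NC (3.24-fold, log2 1.70 ± 0.54, edgeR unadjusted p = 0.00798, adjusted p = 0.335), and this p stayed under 0.05 when any library was left out. Mrpl13, a large-subunit gene that overlaps Mtbp on the other strand, had 12.9, 11.5, 24.7 and 8.27 CPM in DPI libraries compared with 2.00 and 4.30 in NC (4.54-fold, log2 2.18 ± 0.85, edgeR unadjusted p = 0.0226, adjusted p = 0.410). Its NC values rest on 11 and 23 counts, its vehicle values (7.99, 3.26 and 18.6 CPM) overlapped both groups, and without NC library 1 or DPI library 3 its p was 0.0986 or 0.0691 in edgeR, and with a replicate block it was 0.0616.

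Mrps11, a small-subunit gene whose product lines the platform, had 25.7 and 26.1 CPM in NC, 11.5, 14.1 and 9.42 in vehicle and 13.5, 14.9, 5.57 and 3.37 in DPI libraries. Every HFD library was below both NC libraries, and the DPI difference was 2.78-fold (log2 -1.48 ± 0.61, edgeR unadjusted p = 0.0298, adjusted p = 0.427), with unadjusted p = 0.0565 to 0.0696 without NC library 1, NC library 2, DPI library 3 or DPI library 4, 0.140 with a replicate block and 0.0528 after thinning to the smallest library. Its divergent neighbour Mrpl46 had 2.37 and 11.8 CPM in NC, 12.7, 13.2 and 14.1 in vehicle and 12.5, 7.81, 10.02 and 11.2 in DPI libraries, and it did not pass the test in any comparison. Mrps18b had 19.9, 21.4, 24.5 and 18.9 CPM in DPI libraries (log2 1.504 ± 0.67 over NC, edgeR unadjusted p = 0.0423, adjusted p = 0.454), and without NC library 1 this was 0.70 with unadjusted p = 0.247 in edgeR. Leaving out vehicle library 2 or any DPI library gave a p of 0.0516 to 0.0747, and library-size scaling, fitting only these groups and thinning gave 0.0518 to 0.0754.

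**Figure D5:**
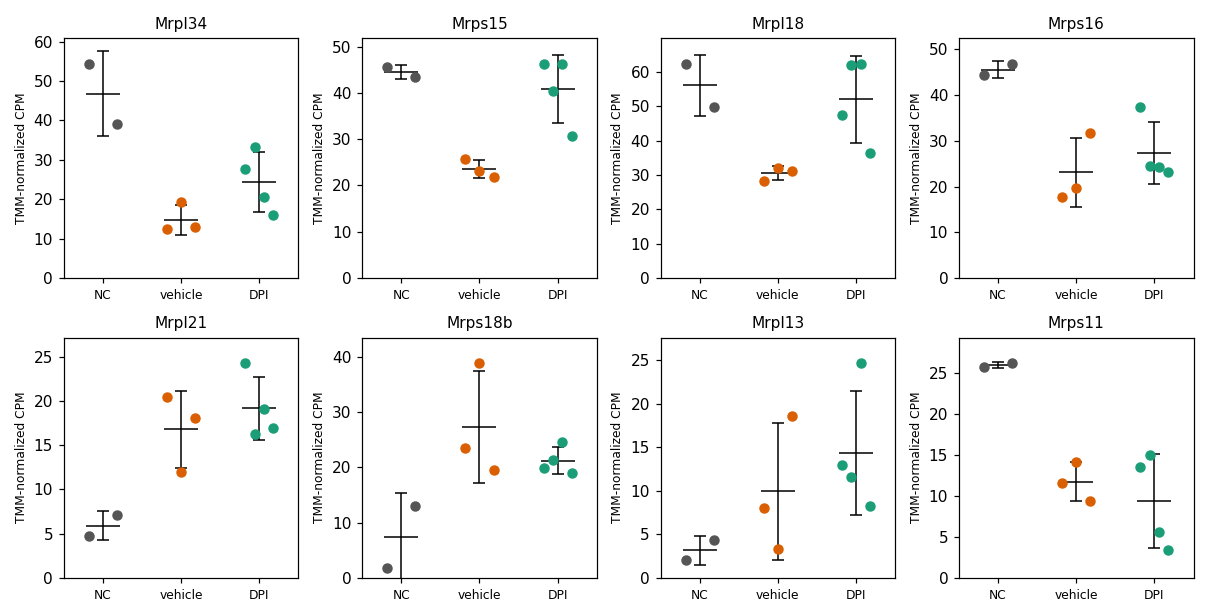
TMM-normalized CPM of 8 genes in each library (points) with the group mean and SD (bars), for NC, HFD vehicle and HFD DPI. Mrpl34, Mrps15, Mrpl18 and Mrps16 lie higher in both NC libraries than in the 3 vehicle libraries, Mrpl21 and Mrps18b lie lower in NC, Mrpl13 is lower in NC than in DPI libraries only, and Mrps11 is lower in all 7 HFD libraries.

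Genes chosen for the role of their protein mostly showed overlapping groups. In the decoding region of the small subunit, Mrps12 had 18.8 and 37.0 CPM in NC, 15.8, 19.8 and 5.95 in vehicle and 28.3, 25.1, 16.0 and 15.2 in DPI libraries. Mrps2 ranged from 3.10 to 20.4 CPM, Mrps7 from 8.22 to 36.2, Mrps14 from 30.2 to 92.0, Mrps22 from 0 to 12.7, Mrps27 from 0.546 to 16.3 and Mrps34 from 5.83 to 27.5, and the highest and the lowest library were both NC for Mrps7 and Mrps22. None of these 7 passed the test in any of the 3 comparisons.

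In the large subunit, Mrpl2 and Mrpl3 encode proteins near the peptidyl transferase center. Mrpl2 had 12.4 and 11.95 CPM in NC, 6.88, 26.7 and 2.73 in vehicle and 12.9, 13.6, 35.6 and 18.98 in DPI libraries, with no overlap between DPI and NC (edgeR unadjusted p = 0.361). Mrpl3 ranged from 6.35 to 25.8 CPM. The stalk genes Mrpl10, Mrpl11 and Mrpl12 (the last also known to bind the mitochondrial RNA polymerase) ranged from 19.5 to 38.2, from 6.37 to 23.2 and from 14.8 to 50.6 CPM. Mrpl11 stood at 6.37 and 11.02 CPM in NC and at 14.4, 18.002, 23.2 and 16.9 in DPI libraries, without overlap, but did not pass the test (edgeR unadjusted p = 0.0908). Around the exit tunnel, Mrpl23 ranged from 30.7 to 57.7 CPM. Mrpl24 had 35.2 and 39.4 CPM in NC and 24.2, 33.0 and 25.8 in vehicle libraries, without overlap (edgeR unadjusted p = 0.370), and 17.1 to 53.7 in DPI libraries. Mrps30 ranged from 13.3 to 30.9 CPM, with its highest value in DPI library 4. The dehydrogenase gene Mrps36 had 27.5 and 33.1 CPM in NC and 24.4, 15.598 and 7.43 in vehicle libraries without overlap, and 25.3, 35.0, 31.4 and 17.8 in DPI libraries (edgeR unadjusted p = 0.0981 for vehicle against NC).

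By class, the small-subunit genes had 1 of 26 called between vehicle and NC (3.85%, median log2 fold change -0.33) and none of 26 between DPI and vehicle (0.25), and the large-subunit genes 2 of 49 (4.08%, -0.07) and none of 49 (0.15), compared with 11.7% and 2.84% of all genes. By origin, 2 of 45 bacterial homologues (4.44%) and 1 of 30 genes counted as mitochondria-specific (3.33%) were called between vehicle and NC. Of the 45 bacterial homologues, 5 had an unadjusted p under 0.05 between vehicle and NC (Mrpl34, Mrpl21, Mrps15, Mrps16 and Mrpl18), or 11.1%, and of the 30 mitochondria-specific genes 1 did (Mrps18b, 3.33%), compared with 13.0% of all genes. The difference between the classes was not tested.

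Other genes of the same pathway were examined as lists, beginning with mitoribosome proteins under other symbols (Dap3, Chchd1, Ptcd3, Aurkaip1 and others). None of these 7 had an unadjusted p under 0.05 in any comparison, compared with 13.0%, 4.13% and 10.7% of all genes for vehicle against NC, DPI against vehicle and DPI against NC. Their median log2 fold change was -0.60 between vehicle and NC and 0.35 between DPI and vehicle, compared with 0.03 and 0.04 over all genes. Dap3, a GTP-binding protein of the small subunit, had 31.3 and 31.7 CPM in NC, 16.9, 26.1 and 19.3 in vehicle and 27.0, 17.0, 20.97 and 38.1 in DPI libraries.

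Among 17 translation factors, 2 were called between vehicle and NC (11.8%, compared with 11.7% of all genes) and 1 between DPI and vehicle (5.88%, compared with 2.84%). Tufm, the mitochondrial elongation factor Tu, had 36.1 and 58.1 CPM in NC, 20.4, 16.7 and 15.9 in vehicle and 32.4, 61.1, 31.9 and 30.7 in DPI libraries. The vehicle libraries lay below all others. Tufm fell from NC to vehicle (log2 -1.41 ± 0.43, edgeR unadjusted p = 0.00596, adjusted p = 0.238) and was higher with DPI than with vehicle (log2 1.14 ± 0.38, edgeR unadjusted p = 0.00999, adjusted p = 0.999), in comparisons that share the vehicle libraries. Without NC library 2 the first p was 0.0711. Gfm2, a factor that releases ribosomes after termination, had 0 and 1 counts in NC, 12, 31 and 11 in vehicle and 54, 16, 11 and 87 in DPI libraries, and its fitted fold change depends on those low counts.

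Of 21 mitochondrial tRNA synthetase genes, 4 were called between vehicle and NC (2 higher and 2 lower, 19.05% compared with 11.7% of all genes), and 1 between DPI and vehicle (lower, 4.76% compared with 2.84%). Mars2, the methionyl enzyme gene, had 0 counts in both NC libraries, 51, 56 and 119 in vehicle and 96, 29, 155 and 38 in DPI libraries. Against a floor of 3 counts in each NC library, its mean level was at least 30.8-fold higher in vehicle and at least 21.9-fold higher in DPI libraries (edgeR unadjusted p = 0.000112 and 0.000164, adjusted p = 0.0631 and 0.0952). Vars2 also had 0 counts in both NC libraries and was at least 6.25-fold higher in vehicle libraries (12 to 19 counts). Counts assigned to Lars2 stood far above the rest, at 1375 to 14285 CPM, and whether all of them came from Lars2 mRNA was not tested. They were lower on average in DPI than in vehicle libraries (log2 -1.26 ± 0.53, edgeR unadjusted p = 0.0332, adjusted p = 0.999). Without vehicle library 3 that log2 value was -0.76 with unadjusted p = 0.215 in edgeR, and without vehicle library 1 or DPI library 1 or 2 the p was 0.0671 to 0.0781. The DESeq2 unadjusted p of Lars2, with all libraries, was 0.0522.

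Of 28 assembly factors, 3 were called between vehicle and NC (10.7%, compared with 11.7% of all genes) and 1 between DPI and vehicle (3.57%, compared with 2.84%). Malsu1, which keeps immature large subunits from joining small ones, had 6.74 and 3.74 CPM in NC and 19.3, 13.6 and 17.6 in vehicle libraries (log2 1.68 ± 0.62, edgeR unadjusted p = 0.0169, adjusted p = 0.304). Mettl17, which acts on the small subunit, had 31.1 and 20.5 CPM in NC and 6.88, 9.25 and 5.204 in vehicle libraries (log2 -1.86 ± 0.73, edgeR unadjusted p = 0.0240, adjusted p = 0.330). Mpv17l2 had 18.4, 14.5 and 6.20 CPM in vehicle and 44.0, 25.8, 36.9 and 19.3 in DPI libraries (log2 1.27 ± 0.53, edgeR unadjusted p = 0.0320, adjusted p = 0.999). For each of these 3, the groups compared here did not overlap. Without NC library 2 the p of Malsu1 was 0.0771, without NC library 1 or vehicle library 1 or 3 that of Mettl17 was 0.0620 to 0.0949, and without vehicle library 2 or 3 or DPI library 1 or 3 that of Mpv17l2 was 0.0579 to 0.127 in edgeR. With library-size scaling the p of Malsu1 was 0.0563, and with a replicate block that of Mettl17 was 0.0668.

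Of 16 tested genes for mitochondrial DNA expression and its nuclear regulators, 1 was called in each comparison with vehicle (6.25%, compared with 11.7% of all genes for vehicle against NC and 2.84% for DPI against vehicle) and 2 between DPI and NC (12.5%, compared with 9.29%). The nuclear receptor Esrra had 28.6 and 7.66 CPM in NC and 6.66, 5.44 and 6.69 in vehicle libraries (log2 -1.53 ± 0.70, edgeR unadjusted p = 0.0465, adjusted p = 0.379), and without NC library 1 the log2 value was -0.28 with unadjusted p = 0.748 in edgeR (0.0530 to 0.104 without any vehicle or DPI library, and 0.0504 to 0.171 under 5 of the 10 alternative settings). Its DPI libraries had 6.31, 7.13, 4.82 and 5.51 CPM, also below both NC libraries (log2 -1.61 ± 0.64, edgeR unadjusted p = 0.0263, adjusted p = 0.418). Without NC library 1 this log2 value was -0.36 with unadjusted p = 0.672 in edgeR, and the p was 0.0553 without DPI library 3 and 0.154 with a replicate block. The coactivator Ppargc1b had 19.1, 5.80 and 8.67 CPM in vehicle and 1.04, 6.45, 3.34 and 0.816 in DPI libraries (log2 -1.998 ± 0.86, edgeR unadjusted p = 0.0358, adjusted p = 0.999), and without vehicle library 1 the log2 value was -1.36 with unadjusted p = 0.204, and without DPI library 1, 3 or 4 the p was 0.0542 to 0.0856, and 0.201 with a replicate block. Peo1, the mitochondrial helicase gene Twnk, whose exons overlap those of Mrpl43, had 8.74 and 11.02 CPM in NC and 2.27, 3.40, 2.60 and 4.08 in DPI libraries (log2 -1.68 ± 0.71, edgeR unadjusted p = 0.0329, adjusted p = 0.436), with unadjusted p = 0.0537 to 0.112 without NC library 2 or DPI library 1, 2 or 3 and 0.0639 to 0.0929 with no filter on low counts, only these groups fitted or a replicate block.

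Set beside the mitochondrial family, 79 cytosolic ribosomal protein genes had a median log2 fold change of 0.44 between vehicle and NC, with 77 values above 0 and 19 with an unadjusted p under 0.05, all higher (24.1%, compared with 13.0% of all genes). That count depends on single libraries and on the test. It was 1 without NC library 1, 11 without vehicle library 3 or DPI library 3, 9 (and 1 lower) without vehicle library 2, and 24 without NC library 2. It was 2 under library-size scaling, 5 by the likelihood ratio test, 12 with size factors in edgeR and 24 with a replicate block. Relative to the median of all genes in the same fit, the median of these genes was 0.405 as reported, 0.41 under library-size scaling and 0.17 without NC library 1. The 36 tested complex I genes with Nduf symbols had a median of -0.05 in the same comparison and 0.14 between DPI and vehicle. The differences between these families were not tested.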

How the data were processed

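The authors sequenced polyA RNA (KAPA mRNA HyperPrep) from 9 libraries and deposited a table of gene counts that were not normalized. The study's methods name bowtie2 and RSEM on mm10, whereas the submitters' processing notes name TopHat2 and edgeR, so how reads were divided among similar genes is uncertain, and strand use in counting is not given in the sources used here. All columns were mapped to libraries by their labels.

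The quasi-likelihood test of edgeR 4.0.16 (R 4.3.3) was fitted to all counts (filterByExpr, TMM, glmQLFit over 3 groups), with Benjamini-Hochberg adjustment over 11393 of 23413 genes. Levels are TMM-normalized CPM, and the summed level is CPM of the library total unless stated. The script was tested on simulated data. With 3534325 to 15585775 counts per library, 3 counts correspond to 0.192 to 0.849 CPM. Each p-value sets a difference between groups against the spread between these libraries, estimated over all 3 groups.

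Named genes were those with an unadjusted p under 0.05 (at most 10 per comparison), the 3 highest and 3 lowest per kilobase, genes chosen for their role, and the 2 smallest p-values per comparison from each pathway list. Mrpl1, Mrpl35, Mrps9, Mrps35 and Mrpl46 were named after their values were seen, as were the promoter motifs and the examples of copies and neighbours. The members and lists were chosen with earlier results of these data known. Gene positions, lengths and copies came from GENCODE M21 and promoters from RefSeq. Alternatives were other normalizations and filters, DESeq2 1.42.0, the likelihood ratio test, fits of only 2 groups, a replicate block, removal of Rn45s, thinning to 3534325 counts, and leaving out each library. The study describes mice assigned to either vehicle or DPI, so same-numbered libraries were taken as different mice and not treated as paired.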

Additional observations from a re-analysis of the deposited data

Results flagged for a closer look

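In the 4 DPI libraries, 3 of 56 groups of values tested had a single library far from the others, that is with a gap to the nearest library, as a share of the range of the group, above Dixon's 95% critical value. Chance gives about 1 in 20 such groups. Mrps16 was highest in DPI library 1, at 37.4 TMM-normalized CPM compared with 24.5 in the next library. Mrps30 was highest in DPI library 4, at 30.9 CPM compared with 16.0. Tufm was highest in DPI library 2, at 61.1 CPM compared with 32.4.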

How the results depend on the processing

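None of the 13 results for genes with an unadjusted p under 0.05 reversed under the 10 alternative settings or the 9 fits that left out a library. Of their values, 111 of 130 under the settings (DESeq2 among them) and 77 of 117 without a library kept an unadjusted p under 0.05, and the other 19 and 40 no longer passed. The median for DPI against NC changed sign with library-size scaling. For the 22 genes chosen for their role, 32 of 648 values under the settings and 68 of 594 without a library had the opposite sign to the reported fit. For HFD vehicle against NC, 9 genes were called with library-size scaling, 5 with at least 10 counts in every library and 5 with DESeq2 (11.8%, 7.04% and 6.58%, compared with 12.9%, 10.7% and 14.02% of all genes). An unadjusted p under 0.05 was reached by 10 genes with library-size scaling and by 3 with only 2 groups fitted (14.1% and 10.2% of all genes). The adjusted p of 1 gene, Mrpl34, passed with DESeq2 and 1, also Mrpl34, with the likelihood ratio test (2.74% and 2.46% of all genes), and the median was -0.52 with library-size scaling. For DPI against vehicle, 1 gene, Mrpl1, was called with library-size scaling, at least 10 counts, DESeq2, only 2 groups fitted and thinning (2.61 to 3.78% of all genes). For DPI against NC, 3 genes had a p under 0.05 with only 2 groups fitted and with thinning (9.17% and 10.9% of all genes), and the median was -0.14 with library-size scaling. The cause was not tested. Mean summed levels were 2112 CPM in NC after TMM, and 3607 in NC, 2695 in vehicle and 3024 in DPI libraries without Rn45s in the total, which has a smaller denominator by construction.

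The labels share replicate numbers, and deviations of same-numbered libraries correlated at -0.0222 to 0.0841 across genes. With a replicate block, 3 genes had an unadjusted p under 0.05 between vehicle and NC and 3 between DPI and NC (9.05% and 8.53% of all genes), and the medians were -0.18 for vehicle against NC, 0.32 for DPI against vehicle and 0.16 for DPI against NC.

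Leaving out each library gave 3 to 13 genes called between vehicle and NC, 4 to 13 with an unadjusted p under 0.05, 0 to 4 with an adjusted p under 0.05 and a median of -0.25 to -0.04. DPI against vehicle gave 0 to 3 called, 0 to 4, 0 to 0 and 0.12 to 0.32. DPI against NC gave 1 to 11, 1 to 11, 0 to 4 and 0.002 to 0.17. The shares of all genes moved too, from 9.04 to 21.4% called and 9.65 to 21.8% with an unadjusted p under 0.05 for vehicle against NC, 1.65 to 4.64% and 1.87 to 6.17% for DPI against vehicle, and 7.4 to 21.3% and 7.97 to 21.8% for DPI against NC. The highest counts against NC came without NC library 2, where a single NC library is assumed to vary like the other groups, and the highest against vehicle without vehicle library 2. The lowest for DPI against NC came without DPI library 3. Median counts per gene of 69.5 to 443 per library limit the precision.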
